A study of Mus musculus with 8 samples.

Results

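The antioxidant and glutathione genes of the mouse cornea, 38 genes in all, were followed in dry eye with and without blockade of the β2-adrenergic receptor. They are the transcription factor gene Nfe2l2 (its product is Nrf2), its inhibitor Keap1, and genes of redox enzymes, glutathione synthesis, peroxiredoxins, superoxide dismutases, glutathione transferases and ferritins. The rule is a list of gene symbols that uses no measured value, and all 38 were found among the 23597 genes of the deposited table. Messenger RNA had been sequenced from corneas at day 14 of a scopolamine model, in which a muscarinic antagonist is injected and the ocular surface dries. ICI 118551, which blocks the β2-adrenergic receptor, was given in addition to the mice behind the 4 samples named ICI and not to those behind the 4 named Scop. A sample was a pool of 4 corneas, and every mouse had dry eye, so no value here is set against a normal cornea. The sources used here do not give strain, age, sex, doses or the route of ICI 118551. Nor do they tie the pools to mice, and the p-values therefore describe the spread among these 8 samples, which may be technical.

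Nrf2 is held at a low level in the cytoplasm by Keap1, which hands it to a ubiquitin ligase for destruction. Oxidants and electrophiles modify cysteines of Keap1, and Nrf2 then enters the nucleus, pairs with small Maf proteins and binds antioxidant response elements near its target genes. The targets make and recycle glutathione, conjugate it to reactive molecules, reduce quinones and peroxides, and store iron. The corneal epithelium meets light and oxygen directly, and it carries much of this enzyme equipment.

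Levels are given in FPKM (fragments counted, divided by gene length and library depth), which can be compared between genes. The libraries held between 34354093 and 39885523 counted fragments, a depth recovered from the FPKM. The 10 markers of corneal epithelium all passed the filter on low values, and their summed level lay between 35117 and 37141 FPKM in ICI and between 34769 and 40367 in Scop. The 11 markers of keratocytes and stroma summed to between 1638 and 2225 FPKM in ICI and between 597 and 1950 in Scop. The lowest sum belonged to Scop replicate 3, which stands apart from the other 7 libraries, and in bulk tissue fewer cells of a type cannot be told apart from less RNA per cell. The 8 neutrophil markers in the table, of which 2 passed the filter, summed to between 7.88 and 15.97 FPKM in ICI and between 15.9 and 24.7 in Scop. Nearly all of that sum was S100a9, which epithelial cells also express (9.38 ± 2.35 against 20.3 ± 3.63 FPKM, SD, n = 4 per group, without overlap), while S100a8 overlapped with a ratio of ICI to Scop of 0.932 and the other 6 were at or near 0. The part of S100a9 in the results below was not tested. Of the 8 lymphocyte markers in the table none reached a mean of 0.5 FPKM, and Cd79a, Ncr1 and the neutrophil gene Ly6g were at 0 in every library.

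Between ICI and Scop this group of genes differed little, and no single gene passed the test. Of the 38 genes 37 had a mean of at least 0.5 FPKM and were tested, and the remaining one was the cystine transporter gene Slc7a11. With limma's test adjusted over all 12100 genes tested, 0 of the 37 passed, as did 0% of all genes tested. At an unadjusted p under 0.05, 1 of 37 was higher in ICI (Ephx1, 2.70% against 4.56% of all genes tested) and 3 were lower (Gsr, Gss and Srxn1, 8.11% against 7.46%). The first share lay below that of all genes and the second near it. Limma-voom on fragments recovered from the FPKM also called 0 after adjustment, and at the unadjusted threshold Ephx1 and Gstt1 higher and Gsr and Gss lower. Without Scop replicate 3 the unadjusted calls were 0 higher and Gclc, Gsr and Gss lower. Over all genes the unadjusted calls split into 552 higher and 903 lower, and into 728 and 717 after quantile normalisation. The groups did not overlap for Gstt1, with all ICI values above all Scop values (2.63% of all genes tested), and for Gsr, with all ICI values below (4.36%). The median log2 fold change was 0.0081 over the 37 genes and -0.015 over all genes tested, with 16 of the 37 below 0 (all genes 55.4%) and 21 above (all genes 44.6%). Fold changes are ICI minus Scop on the log2(FPKM + 1) scale, which understates the change of genes with few FPKM.

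The intervals show what size of change the data can still hold. Among the 32 genes whose mean reached 10 FPKM, where adding 1 matters little, 30 had a 95% interval of limma within a 1.5-fold change in either direction. The exceptions were Sod3 and Gstt1, whose intervals stayed within 2-fold. For the 5 tested genes of lower level (Srxn1, Mgst1, Akr1b8, Mgst2 and Hmox1) intervals on this scale are too narrow to be read as folds of FPKM. For 26 of the 37 genes the group means differed by less than 10%. These counts were not made over all genes tested, whose levels were lower (median of means 7.26 FPKM, against 32.6). They are therefore not a trait particular to this group of genes.

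**Figure D1:**
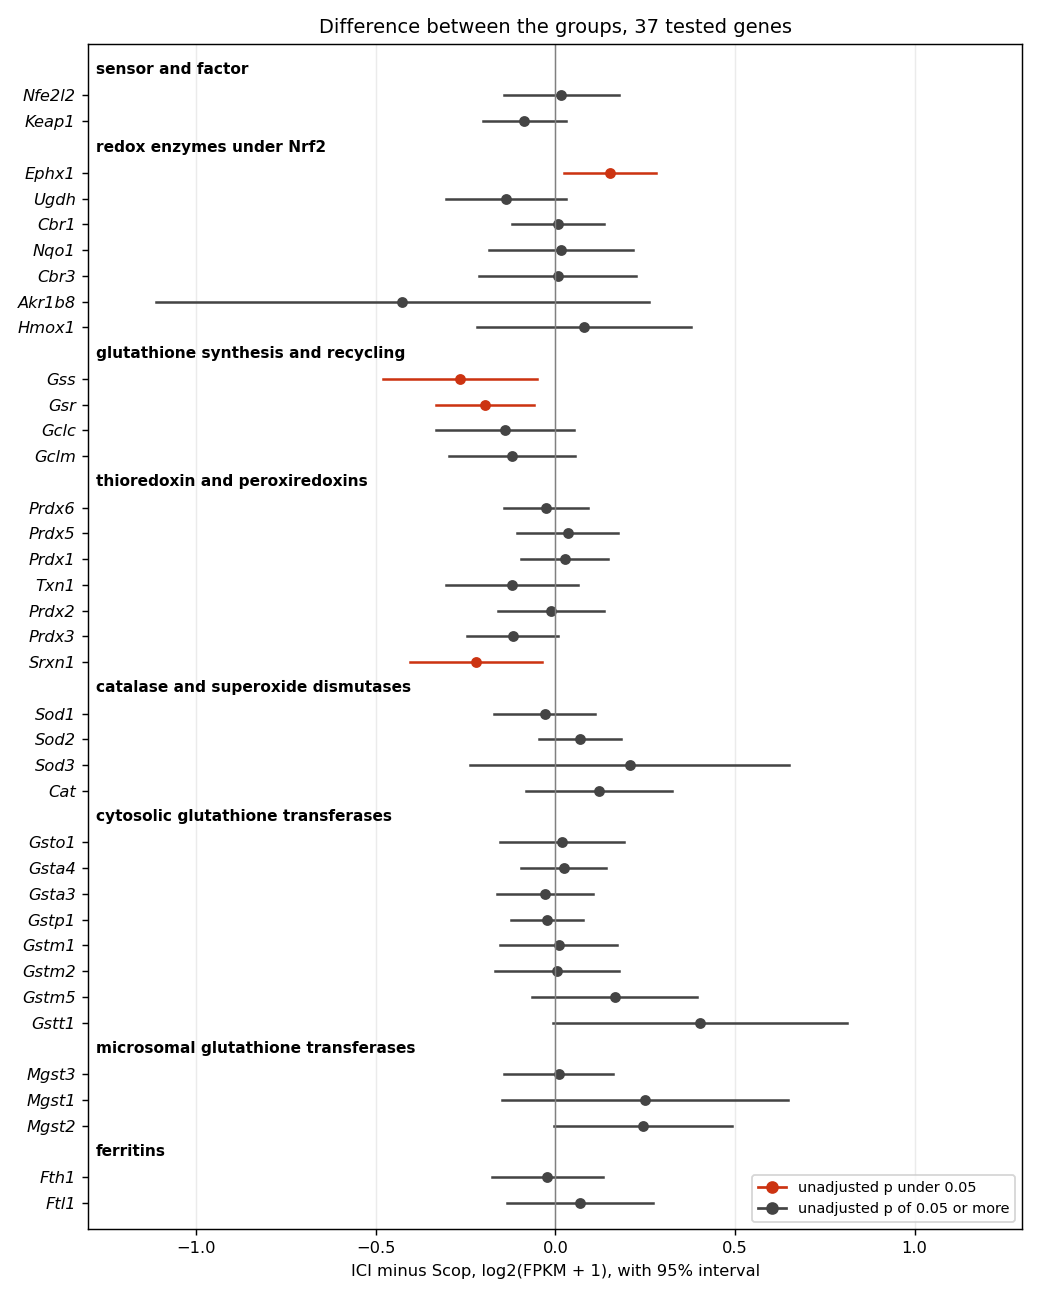
Difference between ICI and Scop for the 37 tested genes, grouped by role. The x axis is ICI minus Scop on the log2(FPKM + 1) scale, points are limma's estimates, bars are 95% intervals, and red marks an unadjusted p under 0.05. Gss, Gsr and Srxn1 lie left of 0, Ephx1 lies right of it, and the widest interval is that of Akr1b8.

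The 38 genes held between 5.24% and 5.95% of the summed FPKM of a library, and Gsto1, Gsta4 and Fth1 made up between 88.5% and 90.1% of that sum. Gsto1, a glutathione transferase of the omega class, had the highest mean of all 23597 genes and ranked first or second in every library. Its level was 15210.3, 17392, 16097 and 16189 FPKM in ICI replicates 1 to 4 and 15256, 16586, 17716 and 14637 FPKM in Scop replicates 1 to 4. The groups overlapped, and the ratio of Gsto1 to the epithelial keratin gene Krt12 within a library averaged 1.02 ± 0.0637 for ICI and 0.989 ± 0.0598 for Scop (SD, n = 4 per group, as for all means below). In single libraries that ratio ran from 0.923 to 1.12, so the lead of Gsto1 over Krt12 lay within their spread. Gsta4, an alpha-class transferase that conjugates the lipid peroxidation product 4-hydroxynonenal, ranked seventh by mean, at 4165 ± 142 FPKM in ICI and 4099.9 ± 145 in Scop. Fth1, the heavy chain of ferritin, stood at 1678 ± 44.9 against 1709 ± 165 FPKM.

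Prdx6, Prdx5, Ftl1, Prdx1, Txn1, Gsta3 and Prdx2 had means over the 8 libraries between 119.7 and 346 FPKM, and 22 genes had means between 10 and 100. In the order of means Prdx6, Prdx5 and Ftl1 (346, 328 and 319 FPKM) did not differ beyond their spread, nor did Prdx1 and Txn1 (281 and 277), Mgst3 and Ephx1 (94.95 and 93.8), or Gstm1 and Gstm2 (38.9 and 38.1). The lowest were Srxn1, Mgst1, Akr1b8, Mgst2 and Hmox1, with means between 1.39 and 8.67 FPKM, and Slc7a11 with 0.0305. The coefficient of variation over the 8 libraries had a median of 8.0% for the 37 tested genes and 10.1% for all genes tested, whose levels were lower (median of means 7.26 FPKM, against 32.6). It ran from 3.01% for Gstp1 to 59.4% for Akr1b8.

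**Figure D2:**
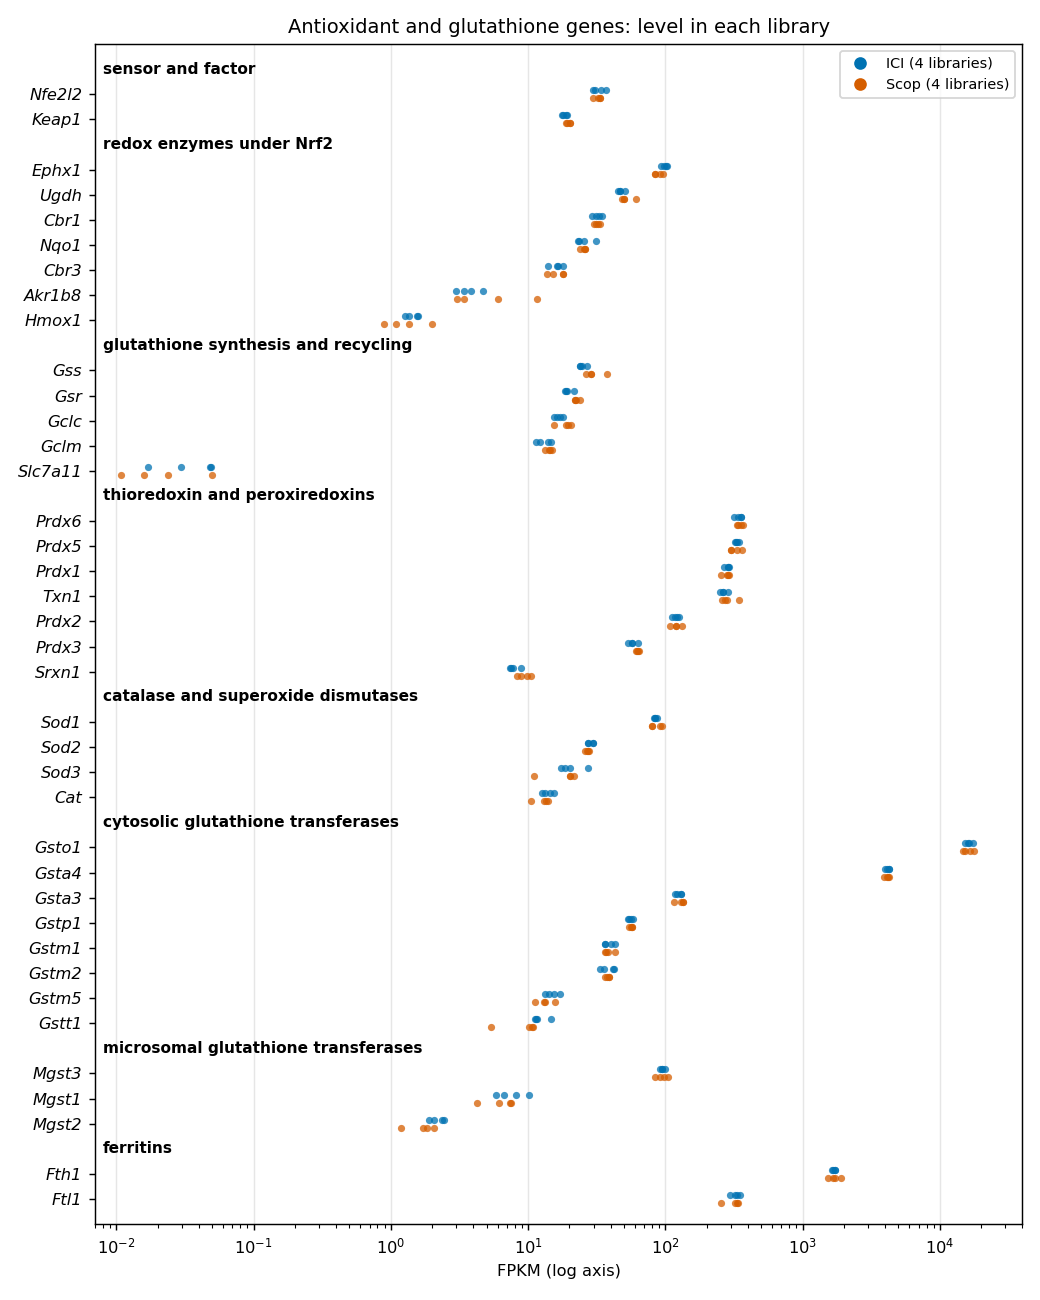
FPKM of the 38 genes in each of the 8 libraries, on a log axis, grouped by role and ordered by mean within a role. Each point is a library, blue for ICI and orange for Scop. Gsto1, Gsta4 and Fth1 lie above 1000 FPKM, Slc7a11 lies below 0.05 FPKM, and the colours overlap for nearly all genes.

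The sensor and the factor came first in the pathway and differed little. Nfe2l2 stood at 34.1, 30.5, 29.9 and 36.7 FPKM in ICI replicates 1 to 4 and at 33.5, 32.2, 29.9 and 33.7 in Scop replicates 1 to 4, so that the ICI libraries held both the highest and the lowest value. ICI differed from Scop by a log2 fold change of 0.017 (SE 0.072, 95% interval -0.14 to 0.18), with limma's adjusted p = 0.943. Keap1 stood at 19.1, 17.7, 17.9 and 18.99 FPKM in ICI and 19.1, 20.2, 20.2 and 18.9 in Scop, ICI replicates 2 and 3 lying below all Scop values and the other ICI libraries among them. The difference was -0.086 (SE 0.051, 95% interval -0.20 to 0.028) on the log2 scale, adjusted p = 0.536. The activity of Nrf2 is set mostly by the stability of its protein, which these data do not measure.

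Binding sites for Nrf2 share the core TGACNNNGC. The RefSeq promoters (GRCm38.p6, 250 bases before to 50 after the start) of 32 of the 38 genes were searched for it on both strands. Hmox1, Gclc, Gsr, Prdx6, Sod3 and Gsta4 were not searched. The core was present in 9 of 32 (28.1%), namely Nfe2l2 itself, Srxn1, Gclm, Ugdh, Prdx1, Sod1, Gsta3, Gstm5 and Mgst1, against 12.4% of all 32851 promoters of the same length and 16.9% of the 9606 genes tested here that have one. In Prdx1 it overlaps the AP-1 motif TGACTCA. A match is a run of letters and not a measured binding site, and no match says only that the letters are not in this window. The stretches of 5 of them are shown, chosen to cover different roles (the factor itself, glutathione synthesis, a peroxiredoxin, glucuronate supply and a transferase). They run 5′ to 3′ on the strand of the gene, with the core in capitals, which reads that way directly in Nfe2l2 and Ugdh and as its reverse complement in the others.
Nfe2l2 (chr2:75704865-75704913, minus strand): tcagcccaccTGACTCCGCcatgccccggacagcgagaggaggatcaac
Gclm (chr3:122245393-122245461, plus strand): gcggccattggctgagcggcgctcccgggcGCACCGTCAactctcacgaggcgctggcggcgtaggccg
Prdx1 (chr4:116685436-116685504, plus strand): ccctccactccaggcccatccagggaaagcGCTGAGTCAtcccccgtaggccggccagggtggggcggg
Ugdh (chr5:65435936-65436004, minus strand): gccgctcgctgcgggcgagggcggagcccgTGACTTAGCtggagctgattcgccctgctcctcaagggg
Mgst1 (chr6:138140441-138140509, plus strand): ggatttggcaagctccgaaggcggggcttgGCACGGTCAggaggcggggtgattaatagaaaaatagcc
Positions are counted from the start site around which each promoter was taken. The core runs from -240 to -232 in Nfe2l2 and from -134 to -126 in Gclm, whose listed gene start lies upstream of that site. It runs from -132 to -124 in Ugdh (a further match lies nearer the start) and from -56 to -48 in Mgst1. The 9 genes with the core had a median log2 fold change of -0.030, and the 22 tested genes with a promoter but without the core 0.0084. Srxn1 was the only one of the 9 with an unadjusted p under 0.05 (all genes tested, 12%).

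Of the 7 genes of redox enzymes under Nrf2, 1 had an unadjusted p under 0.05 (all genes tested, 12%) and none passed after adjustment. That gene was Ephx1, microsomal epoxide hydrolase (chromosome 1, 180989556 to 181017569), which opens reactive epoxides to diols. Ephx1 stood at 93.2, 98.4, 103 and 101 FPKM in ICI replicates 1 to 4 and at 91.1, 83.4, 84.5 and 96.4 in Scop replicates 1 to 4. The groups overlapped only where ICI replicate 1 lay below Scop replicate 4. ICI minus Scop was 0.15 (SE 0.057, 95% interval 0.025 to 0.28) on the log2 scale, adjusted p = 0.341. The unadjusted p of Ephx1 was 0.05 or more without ICI replicate 3 or 4 or without Scop replicate 2 or 3.

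Nqo1, the quinone reductase that often serves as a readout of Nrf2, stood at 23.2, 25.4, 31.5 and 23.6 FPKM in ICI and 23.7, 26.2, 25.7 and 26.2 in Scop. ICI replicate 3 was the highest of all libraries, ICI replicates 1 and 4 lay below all Scop values, and ICI replicate 2 lay among them. The log2 fold change of Nqo1 was 0.016 (SE 0.090, 95% interval -0.18 to 0.22), adjusted p = 0.957, and -0.078 without ICI replicate 3. Hmox1, haem oxygenase, was low, at 1.55, 1.27, 1.58 and 1.35 FPKM in ICI and 1.09, 0.886, 1.36 and 2.01 in Scop, which rest on 79 to 98 and 55 to 114 fragments per library. The Scop libraries enclosed all ICI values, and the log2 fold change was 0.080 (SE 0.13, 95% interval -0.22 to 0.38), adjusted p = 0.837.

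Akr1b8, an aldo-keto reductase of reactive aldehydes, varied most. It stood at 2.96, 4.73, 3.40 and 3.81 FPKM in ICI and 3.44, 3.02, 5.996 and 11.6 in Scop, the 2 highest values being Scop replicates 4 and 3. Scop replicates 1 and 2 lay within the range of ICI, and the log2 fold change was -0.43 (SE 0.31). Ugdh, which makes UDP-glucuronate, had its highest value in Scop replicate 3 (61.05 FPKM, against 44.97 to 50.9 in the other 7). The carbonyl reductase genes Cbr1 and Cbr3 had nearly equal means, 32.02 ± 2.11 against 31.8 ± 1.23 and 16.2 ± 1.73 against 16.1 ± 2.04 FPKM.

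Of the 5 genes of glutathione synthesis and recycling 4 were tested, and 0 of them passed after adjustment over all genes. Gsr and Gss had an unadjusted p under 0.05 and a lower mean in ICI (2 of 4, against 7.46% of all genes tested). The log2 fold changes of all 4 were below 0 (median -0.17), as were those of 55.4% of all genes tested. Gsr, glutathione reductase (chromosome 8, 33653238 to 33698162), which returns oxidised glutathione to its reduced form, had the smallest p of the 37 genes. Gsr stood at 18.97, 19.2, 21.8 and 18.6 FPKM in ICI replicates 1 to 4 and at 21.9, 22.1, 24.1 and 22.4 in Scop replicates 1 to 4. All ICI values lay below all Scop values, ICI replicate 3 by the least. The log2 fold change was -0.20 (SE 0.061, 95% interval -0.33 to -0.059), unadjusted p = 0.00952 and limma's adjusted p = 0.289. The unadjusted p stayed under 0.05 in all 16 alternatives, the adjusted p in none.

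Gss, glutathione synthetase (chromosome 2, 155563181 to 155592810), joins glycine to the dipeptide in the last step of synthesis. It stood at 24.8, 23.7, 27.1 and 24.1 FPKM in ICI and 26.5, 28.8, 37.4 and 28.9 in Scop. Scop replicate 3 was far above the rest, and the groups overlapped only where ICI replicate 3 exceeded Scop replicate 1. For Gss the log2 fold change was -0.27 (SE 0.10, 95% interval -0.48 to -0.052), adjusted p = 0.328, and without Scop replicate 3 it was -0.17 (SE 0.06, unadjusted p = 0.0236, limma's adjusted p = 0.276). Without ICI replicate 2 the unadjusted p of Gss was 0.05 or more.

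Gclc and Gclm encode the catalytic and the modifier subunit of glutamate-cysteine ligase, the rate-limiting enzyme. Gclc (chromosome 9, 77754535 to 77794489) stood at 16.99, 15.6, 16.1 and 18.1 FPKM in ICI and 20.5, 18.8, 15.4 and 19.7 in Scop. Scop replicate 3 had the lowest Gclc of all libraries, while the other 3 Scop values exceeded every ICI value. For Gclc the log2 fold change was -0.14 (SE 0.086, 95% interval -0.33 to 0.051), adjusted p = 0.545, and without Scop replicate 3 it was -0.22 (SE 0.06), with an unadjusted p of 0.00589 and limma's adjusted p = 0.188. Gclm stood at 11.5, 13.9, 14.6 and 12.2 FPKM in ICI and 14.3, 14.4, 14.9 and 13.2 in Scop, with ICI replicates 1 and 4 below all Scop values and ICI replicates 2 and 3 among them. For Gclm it was -0.12 (SE 0.079, 95% interval -0.30 to 0.055), adjusted p = 0.572, and -0.065 without ICI replicate 1. The ratio of Gclc to Gclm within a library was 1.30 ± 0.214 in ICI and 1.31 ± 0.205 in Scop.

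Slc7a11, the cystine carrier that feeds this pathway in many cells, was scarcely detected. It was counted with 11, 18, 18 and 6 fragments in ICI and 6, 4, 16 and 8 in Scop. Summed over the 4 libraries these are 53 fragments (exact Poisson interval 39.7 to 69.3) and 34 (23.5 to 47.5), intervals that cover counting error only.

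**Figure D3:**
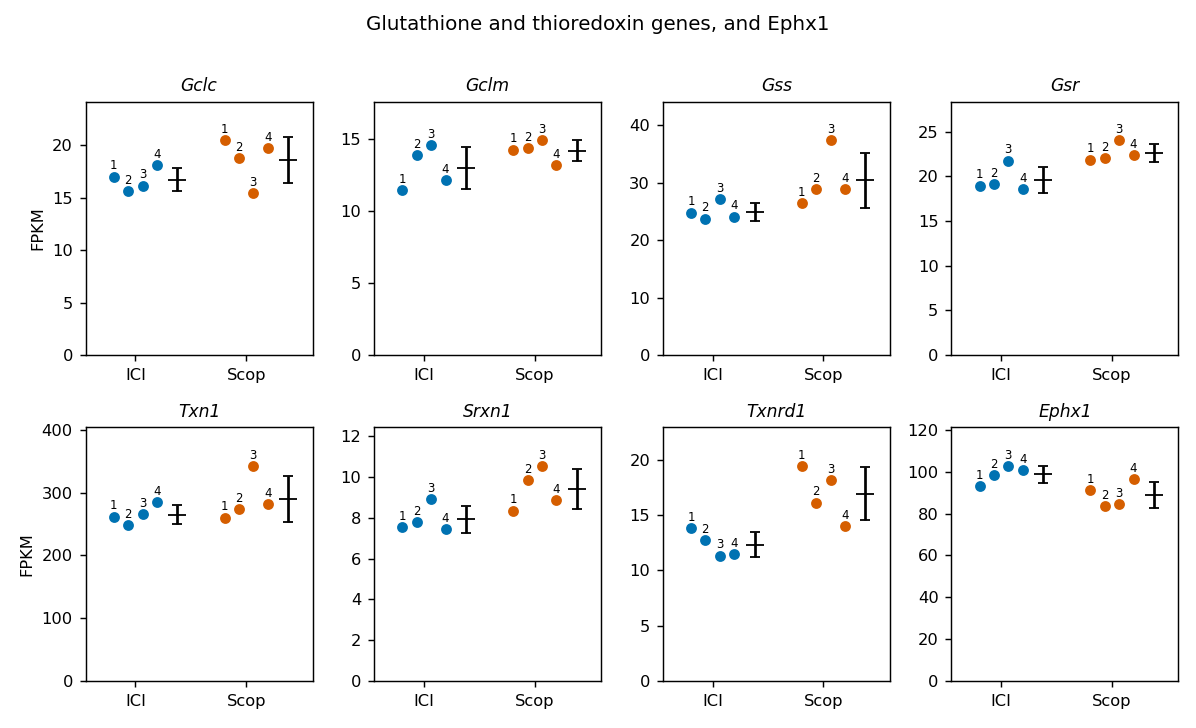
FPKM of glutathione and thioredoxin genes and of Ephx1 in each library (points, labelled with the replicate number), with the mean and SD of the 4 libraries beside them. Gsr and Txnrd1 have no overlap between ICI and Scop, and Scop replicate 3 is the highest for Gss and Txn1 but the lowest for Gclc.

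Thioredoxin and the peroxiredoxins remove hydrogen peroxide at the expense of NADPH. Of these 7 genes 1 had an unadjusted p under 0.05 (all genes tested, 12%). It was Srxn1 (chromosome 2, 152105524 to 152111376), whose product sulfiredoxin repairs overoxidised peroxiredoxins. Srxn1 stood at 7.55, 7.79, 8.90 and 7.45 FPKM in ICI and 8.36, 9.87, 10.5 and 8.88 in Scop. The groups overlapped through ICI replicate 3, which lay above Scop replicates 1 and 4. ICI minus Scop was -0.22 (SE 0.082, 95% interval -0.40 to -0.037) on the log2 scale, adjusted p = 0.340. The unadjusted p of Srxn1 was 0.05 or more without ICI replicate 1 or 4 or without Scop replicate 2 or 3, and also after quantile normalisation and with limma-voom.

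Txn1, thioredoxin itself, stood at 262, 249, 265 and 284 FPKM in ICI and 260.3, 274, 342 and 282 in Scop, and Scop replicate 3 was the highest of all libraries. Thioredoxin had a log2 fold change of -0.12 (SE 0.082, 95% interval -0.30 to 0.062), adjusted p = 0.586, and -0.038 without Scop replicate 3. The peroxiredoxin genes were abundant, and all but Prdx3 had nearly equal group means. Prdx6, which also acts on phospholipid peroxides, stood at 343 ± 17.4 against 349 ± 14.8 FPKM, Prdx5 at 331 ± 8.60 against 324 ± 28.9, and Prdx1 at 284 ± 10.3 against 279 ± 16.9. Prdx2 stood at 119 ± 5.99 against 120.3 ± 10.3 FPKM. Prdx3, the mitochondrial member, stood at 57.9 ± 4.39 against 62.8 ± 1.10 FPKM, with ICI replicate 1 within the Scop libraries and the other 3 below them. Its log2 fold change was -0.12 (SE 0.057). Without ICI replicate 1 Prdx3 had an unadjusted p under 0.05 in limma's test and an adjusted p of 0.281.

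The superoxide dismutases turn superoxide into hydrogen peroxide, which catalase then splits. None of these 4 genes had an unadjusted p under 0.05 (all genes tested, 12%). Sod1, the cytosolic enzyme, stood at 83.4, 87.3, 84.5 and 83.5 FPKM in ICI and 92.1, 94.6, 79.6 and 80.6 in Scop, the Scop libraries lying on either side of ICI. The log2 difference was -0.030 (SE 0.063, 95% interval -0.17 to 0.11), adjusted p = 0.874. Sod2, the mitochondrial enzyme, stood at 27.2, 27.1, 29.5 and 29.9 FPKM in ICI and 27.3, 27.8, 26.2 and 26.9 in Scop. ICI replicates 3 and 4 exceeded all Scop values and the log2 fold change was 0.068 (SE 0.051, 95% interval -0.046 to 0.18), adjusted p = 0.624, and 0.044 without ICI replicate 4.

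Sod3, the secreted enzyme of the extracellular matrix, stood at 27.2, 20.3, 17.5 and 18.5 FPKM in ICI and 21.7, 20.1, 11.1 and 20.2 in Scop. ICI replicate 1 was the highest and Scop replicate 3 the lowest, with the other 6 libraries between 17.5 and 21.7 FPKM. The log2 fold change was 0.21 (SE 0.20, 95% interval -0.24 to 0.65), adjusted p = 0.706, and without Scop replicate 3 it was -0.0046 and without ICI replicate 1 it was 0.078. Cat, catalase, stood at 12.5, 14.5, 15.4 and 13.4 FPKM in ICI and 13.9, 13.1, 10.6 and 13.6 in Scop, again with Scop replicate 3 lowest. Catalase had a log2 fold change of 0.12 (SE 0.091, 95% interval -0.083 to 0.32), adjusted p = 0.626, and 0.039 without Scop replicate 3 or 0.075 without ICI replicate 3.

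Glutathione transferases join glutathione to electrophiles, and of the 8 cytosolic ones none had an unadjusted p under 0.05 (all genes tested, 12%). Gstt1, of the theta class (chromosome 10, 75783813 to 75798584), stood at 14.6, 11.6, 11.2 and 11.5 FPKM in ICI and 10.8, 10.1, 5.37 and 10.7 in Scop. All ICI values lay above all Scop values, with ICI replicate 1 the highest and Scop replicate 3 the lowest by far. The log2 fold change was 0.40 (SE 0.18, 95% interval -0.0080 to 0.81), unadjusted p = 0.0538 and limma's adjusted p = 0.423. Without Scop replicate 3 it was 0.19 (SE 0.09, adjusted p = 0.374).

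The other 7 cytosolic transferase genes differed less. Gsta3 stood at 125 ± 6.27 against 128 ± 8.74 FPKM, Gstp1 at 55.4 ± 2.10 against 56.4 ± 1.27, Gstm1 at 39.1 ± 3.29 against 38.8 ± 3.14 and Gstm2 at 38.2 ± 4.44 against 37.96 ± 1.37. Gstm5 stood at 15.00 ± 1.75 against 13.3 ± 1.83 FPKM, with a log2 fold change of 0.17 (SE 0.10). The microsomal transferases are membrane enzymes, and Mgst2 and Mgst3 can also act on leukotriene A4. Mgst1 stood at 6.69, 10.1, 8.13 and 5.89 FPKM in ICI and 6.18, 7.48, 4.25 and 7.43 in Scop, Mgst2 at 2.18 ± 0.252 against 1.70 ± 0.369, and Mgst3 at 95.1 ± 3.38 against 94.8 ± 9.27. Their log2 fold changes were 0.25 (SE 0.18), 0.24 (SE 0.11) and 0.0086 (SE 0.069).

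Ferritin stores iron in a shell of heavy and light chains. Ftl1, the light chain, stood at 349, 334, 322 and 298 FPKM in ICI and 334, 340.2, 254 and 321 in Scop, lowest in Scop replicate 3. Fth1 stood at 1656, 1709.9, 1626 and 1721 FPKM in ICI and 1725, 1922, 1667 and 1523 in Scop, and the Scop libraries enclosed all ICI values. The log2 fold changes were 0.068 (SE 0.091) for Ftl1 and -0.022 (SE 0.069) for Fth1.

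A single library, Scop replicate 3, held the extreme value for 20 of the 37 tested genes (54.1%, against 39.95% of all genes tested). It was the highest of the 8 for 11 of the 37 tested genes (29.7%, against 15.0% of all genes tested) and the lowest for 9 (24.3%, against 24.9%). It was above the other 7 for Gss, Txn1, Ugdh, Srxn1, Gsr, Gclm, Keap1, Gsto1, Prdx2, Prdx5 and Mgst3. It was below them for Gstt1, Sod3, Mgst1, Ftl1, Cat, Gclc, Gsta3, Sod1 and Sod2. Gstt1 and Sod3 stood at 0.480 and 0.547 times the median of the other 7 libraries, Mgst1 at 0.571, Gss at 1.41 and Txn1 at 1.29. In the same library the stromal markers Kera, Lum and Dcn stood at 39.00, 85.8 and 342 FPKM, while the lowest values in the other libraries were 162.8, 256.0 and 923.8. All markers of that list lay below the other 7 libraries except Fbln1, which lay above them (14.4 FPKM, against 11.1 to 12.99). Krt12, the epithelial keratin, was at its highest there (18414 FPKM). So were the epithelial markers Krt5, Krt14, Krt15, Epcam and Trp63, while Pax6, Aldh3a1, Cdh1 and Gja1 were not. The summed level of the 7 conjunctival markers was highest there too (1869.6 FPKM, against 1122 to 1297). Most of that sum was Krt13 (1468 FPKM). Krt4, Krt19 and Agr2 were also at their highest there, while Krt8 and Spdef were not. Between the groups all 5 tested conjunctival markers had log2 fold changes below 0 (median -0.34, all genes tested 55.4% below 0). Krt4 and Krt19 had an unadjusted p under 0.05 in limma's test, and none passed after adjustment. Of the 10 tested stromal markers 9 had log2 fold changes above 0 and 1 below (median 0.40). ICI replicate 1, the highest library for Gstt1, Sod3, Gstm5, Prdx1 and Ftl1, had the highest summed level of the 6 corneal endothelium markers (220 FPKM, against 80.7 to 162 in the other libraries) and of the stromal markers (2225 FPKM). The part of these cell type markers in the differences between groups was not tested.

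**Figure D4:**
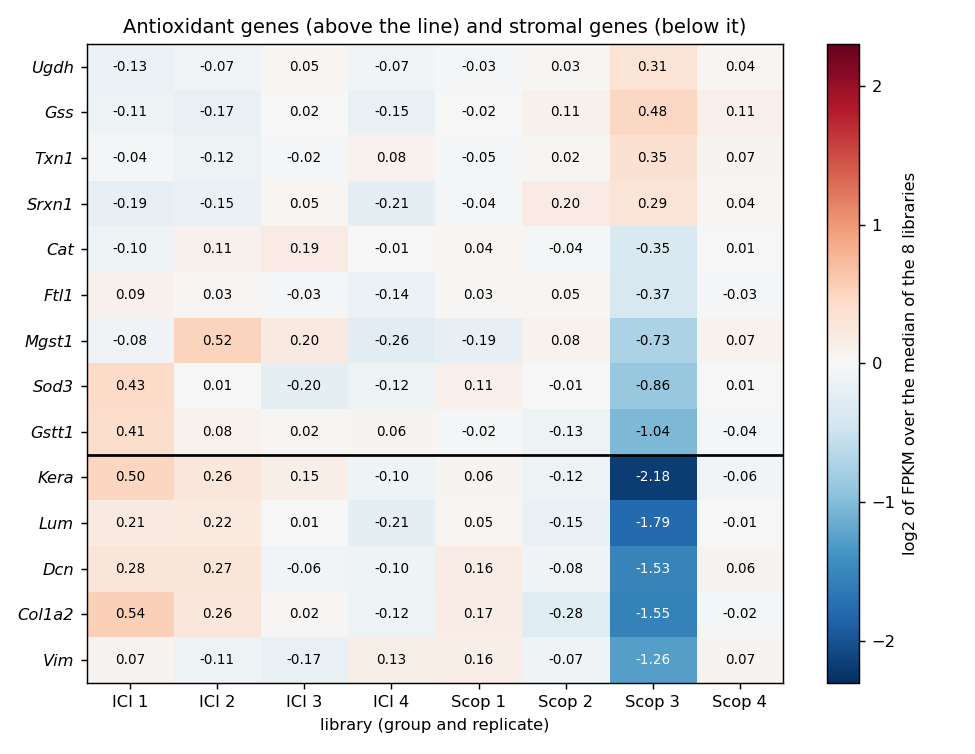
Level of 9 antioxidant genes (above the line) and 5 stromal genes (below it) in each library, as log2 of FPKM over the median of the 8 libraries. Scop replicate 3 is high for Ugdh, Gss, Txn1 and Srxn1 and low for Cat, Ftl1, Mgst1, Sod3, Gstt1 and these 5 stromal genes. ICI replicate 1 is high for Sod3, Gstt1, Kera and Col1a2. The stromal marker Fbln1, which was high in Scop replicate 3, is not shown.

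The wider pathway was read from 135 further genes, of which 123 were tested. None passed limma's test adjusted over all genes, and at an unadjusted p under 0.05, 12 were higher (9.76%, against 4.56% of all genes tested) and 9 lower in ICI (7.32%, against 7.46%). All ICI values lay above all Scop values for 11 (8.94%, against 2.63%) and below for 6 (4.88%, against 4.36%). Their median log2 fold change was 0.0081. Of 17 tested genes of the thioredoxin system only Txnrd1 had an unadjusted p under 0.05 (all genes tested, 12%). Txnrd1 encodes cytosolic thioredoxin reductase and is a target of Nrf2 (chromosome 10, 82833951 to 82897724). It stood at 13.8, 12.7, 11.3 and 11.5 FPKM in ICI and 19.4, 16.1, 18.2 and 13.99 in Scop, with no overlap between the groups. ICI minus Scop was -0.42 (SE 0.10, 95% interval -0.65 to -0.20) on the log2 scale, adjusted p = 0.193.

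Among 23 tested other targets of Nrf2, 4 were higher and 1 lower at the same threshold (all genes tested, 4.56% and 7.46%). Akr1c13, an aldo-keto reductase gene, stood at 31.3, 29.4, 31.7 and 30.7 FPKM in ICI and 26.5, 25.6, 26.3 and 26.7 in Scop without overlap, and had the smallest p of the 123 genes (log2 fold change 0.22, SE 0.045, adjusted p = 0.162). Aldh1a1, a retinaldehyde dehydrogenase, had a log2 fold change of 0.16 (SE 0.055), and the carboxylesterase gene Ces1d of 0.12 (SE 0.042). Osgin1, an oxidative stress-induced growth inhibitor, was the lower one, at 15.6 ± 0.357 against 17.6 ± 1.05 FPKM without overlap (log2 fold change -0.17, SE 0.055).

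Of 17 tested partners and regulators of Nrf2, 1 was higher and 3 lower (all genes tested, 4.56% and 7.46%). Cul3, the scaffold of the ubiquitin ligase that takes Nrf2 from Keap1, had a log2 fold change of -0.17 (SE 0.064), and Fbxw11, a subunit of another ligase for Nrf2, of -0.15 (SE 0.061). The cell cycle inhibitor gene Cdkn1a had -0.17 (SE 0.057), and Amer1, whose product can bind Keap1, had 0.20 (SE 0.062). Of 5 tested glutathione peroxidases 1 was lower (all genes tested, 7.46%), namely Gpx3, the secreted form. Gpx3 stood at 1.70, 1.22, 0.989 and 1.28 FPKM in ICI and 3.12, 1.55, 2.65 and 2.40 in Scop. Its log2 fold change was -0.57 (SE 0.15), with ICI replicate 1 above Scop replicate 2. Of 14 other transferases 1 was higher and 1 lower (all genes tested, 4.56% and 7.46%). The higher one was Gstt2, the neighbour of Gstt1 on chromosome 10 (75831842 to 75837419). It stood at 5.68, 7.05, 7.67 and 6.47 FPKM in ICI and 5.49, 5.11, 3.91 and 4.21 in Scop. All ICI values of Gstt2 lay above all Scop values, as for Gstt1 (log2 fold change 0.44, SE 0.11, adjusted p = 0.202). Gsto2, of the omega class like Gsto1, was the lower one of this list, with a log2 fold change of -0.31 (SE 0.14).

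The lists of supply and iron genes were mixed. Of 20 tested genes of glutathione import, turnover and export, 1 was higher and 1 lower (all genes tested, 4.56% and 7.46%). Cbs, which starts the route from homocysteine to cysteine, was lower (log2 fold change -0.25, SE 0.066). The amino acid carrier gene Slc1a4 was higher (log2 fold change 0.25, SE 0.11). Of 14 genes of NADPH supply, 2 were higher and 1 lower (all genes tested, 4.56% and 7.46%). The malic enzyme genes Me1 and Me3 were higher (log2 fold change 0.20, SE 0.068 for Me1 and log2 fold change 0.19, SE 0.074 for Me3). Me2 was lower (log2 fold change -0.22, SE 0.091). Of 13 tested genes of haem and iron handling 3 were higher and 0 lower (all genes tested, 4.56% and 7.46%), and 7 of the 13 log2 fold changes were above 0 and 6 below. The 3 were Blvra, a biliverdin reductase (log2 fold change 0.30, SE 0.080), the ferroxidase gene Heph (log2 fold change 0.26, SE 0.091) and Ncoa4, the receptor that sends ferritin to autophagy (log2 fold change 0.19, SE 0.075). Of the 20 genes named from these lists 11 kept an unadjusted p under 0.05 in all alternatives run, and Cdkn1a, Cul3, Fbxw11, Gsto2, Slc1a4, Me1, Me2, Me3 and Ncoa4 did not. Leaving out 1 library was enough for 8 of these 9, such as Scop replicate 2 for Me1 and Slc1a4 (log2 fold change 0.16 and 0.15), while Cdkn1a was at 0.0507 only after median-ratio scaling. The adjusted p of limma for these genes lay between 0.162 (Akr1c13) and 0.404 (Gsto2). Gsto2, Me2, Me3, Blvra and Heph were low, with group means between 0.847 (Me3 in Scop) and 2.77 FPKM (Blvra in ICI). Their changes are understated on the scale used. Over the alternatives that kept all libraries the log2 fold change ran from 0.096 to 0.49 for Heph and from 0.062 to 0.40 for Me3.

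Some of the levels rest on sequence that other genes hold too. In the GENCODE M21 transcripts 50.9% of the 50-base stretches of Ftl1 occur in other genes, chiefly the pseudogene Ftl1-ps1. The share was 33.7% for Gstp1 (chiefly Gstp2), 21.04% for Sod2, 18.9% for Gstm1, and 24.2% for Akr1c13 (chiefly Akr1c12). Among the other genes named from the wider lists it was 22.9% for Me1 (chiefly Gm7049) and 17.9% for Ncoa4 (Gm6768). For Gsto1, Gsta4, Gsr, Gss, Gclc, Srxn1, Gstt1, Nfe2l2, Nqo1, Hmox1 and Txnrd1 it was 0. Exons of genes on the opposite strand overlapped 26.5% of the exonic bases of Ftl1, 19.1% of Prdx5, 15.4% of Gss, 13.9% of Gstm5, 11.5% of Prdx2 and 10.9% of Keap1. The sources used here do not say whether the counting used strand. Whether shared or overlapping sequence added fragments to these genes or removed them is therefore not known.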

How the data were processed

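Total RNA from a Qiagen kit went into Vazyme libraries read on an Illumina NovaSeq, per the labels' protocols. The submitters' processing notes name mm10, fastp, HISAT2 and HTSeq. The sources used here give no versions, roles, annotation or strandedness. The authors deposited 1 table of FPKM, with a column per sample matched by title. Ratios between libraries gave back whole fragments for 99.7% of the 20623 genes above 0 in at least 2 libraries (ratios read within 5e-13, values whole within 0.01). Genes above 0 in 1 library are left out of the depth.

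Genes whose mean reached 0.5 FPKM were tested with limma 3.58.1 (R 4.3.3, eBayes with trend) on log2(FPKM + 1), two-sided, with Benjamini-Hochberg adjustment over the 12100 genes and a threshold of 0.05. Standard errors and 95% intervals are limma's. The genes and gene lists were chosen with earlier results of these data known, so no list was tested as a whole. The genes given with each library's value were those with an unadjusted p under 0.05 or no overlap, and Nfe2l2, Keap1, Nqo1, Hmox1, Gclc, Gclm, Slc7a11, Srxn1, Txn1, Cat, Sod1, Sod2 and Sod3. Per wider list up to 4 genes with the smallest p were named. Values by library of other genes, and the genes in the plot of libraries, were chosen after their values were seen. Alternatives were other pseudocounts, filters and scalings, voom on recovered fragments, leaving out each library, and a replicate block. Promoters are those of RefSeq on GRCm38.p6, and coordinates are 1-based. Protein sequences were not used here.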

Additional observations from a re-analysis of the deposited data

Results flagged for a closer look

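In each group of 4 libraries the highest and the lowest value of each of the 38 genes were compared with their neighbours, and 4 of 76 groups held a library whose gap to the next exceeded 0.829 of the group's range (Dixon's test). Chance gives about 1 in 20. Ugdh stood at 61.0 FPKM in Scop replicate 3, against 48.2 to 50.4 in the other Scop libraries. Sod3 stood at 11.1 FPKM in Scop replicate 3, against 20.1 to 21.7. Gstt1 stood at 5.37 FPKM in Scop replicate 3, against 10.1 to 10.8, and at 14.6 FPKM in ICI replicate 1, against 11.2 to 11.6 in the other ICI libraries.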

How the results depend on the processing

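None of the 37 genes passed limma's adjusted threshold under any alternative. The count at an unadjusted p under 0.05 was 1 gene higher and 3 lower. The count higher was 3 with a pseudocount of 5, and 2 after median-ratio scaling, after quantile normalisation, with voom on recovered fragments and with the replicate block, and it lay between 0 and 4 when a library was left out. It was 0 without replicate 3 or 4 of ICI or replicate 2 or 3 of Scop, 2 without replicate 1 of either group, and 4 without Scop replicate 4. The count lower stayed between 2 and 4. The median log2 fold change of the 37 was 0.023 after quantile normalisation and 0.036 with voom, and it lay between -0.018 and 0.022 when a library was left out. Of the 123 wider genes 12 were higher, but 7 with a filter of 5 FPKM and 8 to 15 when a library was left out (alternatives added for these genes after the data were seen). No scaling moved the median of all genes by over 0.1.

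Of the 16 genes tested singly 11 kept their direction under all alternatives run, and so did the 20 named genes of the wider lists. These 20 were chosen for a small p in the main fit, which made a kept direction likely beforehand. Of the 20, 9 had an unadjusted p of 0.05 or more in at least 1 alternative. Leaving out 1 library did this for Cul3 (ICI replicate 1 or 3, Scop replicate 2 or 4), Fbxw11 (ICI 2, Scop 1 or 3), Gsto2 (ICI 1, 2 or 3, Scop 1, 2 or 3), Slc1a4 (ICI 1 or 3, Scop 2), Me1 (Scop 2), Me2 (ICI 1, 2 or 4, Scop 1 or 2), Me3 (any but ICI 1) and Ncoa4 (ICI 2 or 3, Scop 2). Nfe2l2 turned to -0.0028, -0.037 and -0.019 without ICI replicate 1, ICI replicate 4 and Scop replicate 3, and Nqo1 to -0.078 and -0.016 without ICI replicate 3 and Scop replicate 1. Hmox1 turned to -0.016 without Scop replicate 2, Sod1 to 0.00042 and 0.013 without Scop replicates 1 and 2, and Sod3 to -0.0046 without Scop replicate 3. Hmox1 could not be fitted with the filter of 5 FPKM. When each library was left out in turn, the log2 fold changes lay between -0.037 and 0.059 for Nfe2l2, -0.078 and 0.064 for Nqo1, -0.016 and 0.21 for Hmox1, -0.069 and 0.013 for Sod1, and -0.0046 and 0.30 for Sod3. The cause was not tested.

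Replicate numbers were checked as a pairing. Libraries of the same number correlated in their deviations from the group means at 0.287, -0.0093, 0.138 and 0.0769 across genes, so the numbers were not taken to pair the samples. ICI replicates 1 and 3 correlated best with their own number in Scop, and ICI replicates 2 and 4 with Scop replicates 1 and 3. With the replicate block 2 genes were higher and 4 lower.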
